A study of Mus musculus with 6 samples.

Results

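The genes described here belong to the ubiquitin system. They were taken by symbol: the TRIM, RNF, MARCHF, F-box, cullin, KLHL, SIAH, NEDD4, UBE3, UBE2, USP and OTUD families, without Usp18. This rule took 300 of the 52957 open regions in the table, annotated to 257 of the 11180 genes with a symbol. Of these regions, 232 were promoters, meaning that their centre lay at most 1000 bp from the transcription start site, and 68 lay farther away. A few symbols match without being such an enzyme, among them Usp6nl, a GTPase activator, and the long non-coding RNAs Fbxl12os and Usp46os2.

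The assay was ATAC-seq, which counts where the Tn5 transposase cuts into open DNA, and the cells were NIH3T3, an immortalised mouse fibroblast line. The 3 active libraries came from cells in which intron 3 of the cytoplasmic gamma-actin gene, Actg1, carried an active T3H48 hammerhead ribozyme, an RNA that cuts itself. The 3 inactive libraries came from cells with the inactive form of the ribozyme at the same place, so that all 6 libraries carried a knock-in and no library came from unedited cells. The series asks whether destabilised RNA changes the transcription of related genes, and its design text speaks of genotyped stable lines. Whether libraries within a group are separate cultures or separate clones is not stated in the labels. The p-values therefore cover no more than the spread among these libraries, possibly a technical one, and ribozyme activity and line history cannot be told apart.

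Values are normalised reads, that is, reads per region divided by a library factor and rounded. All 6 libraries summed to between 6433944 and 6548535 normalised reads, and no pair was identical. Of 14 fibroblast marker genes, 8 had a promoter region, with summed levels of 2617 to 2804 in active and 3352 to 3531 in inactive libraries. No promoter region of Thy1, Pdgfra, Fap, Lum, Dcn or Postn was analysed here. A single promoter region was present for the epithelial list (134 to 171 in active and 78 to 89 in inactive libraries), the blood list (51 to 69 and 51 to 57) and the endothelial list (74 to 82 and 5 to 9). The neural list had 2 regions (152 to 174 in active and 206 to 241 in inactive libraries), and the skeletal muscle list had 0.

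Ubiquitin is attached to proteins by a relay of enzymes: an activating enzyme (E1) charges a conjugating enzyme (E2, most UBE2 proteins), and a ligase (E3) chooses the substrate. RING ligases such as the TRIM, RNF, MARCHF and SIAH proteins bring the E2 to the substrate, HECT ligases such as NEDD4 and UBE3 proteins carry the ubiquitin themselves, and cullins are scaffolds on which F-box and KLHL proteins serve as substrate receptors. USP and OTUD proteins remove ubiquitin again. In mouse, Trim12, Trim30 and Trim34 genes form a cluster on chromosome 7 that is known for roles in innate immunity.

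Some of the promoters with large differences are shown first, as the 250 bases before the annotated start in 5′ to 3′ direction on the gene's strand, from RefSeq on GRCm38.p6. The peak coordinates below are on mm39, another build, and the sequences were matched to the members by symbol (195 of 257 member genes had an entry). Trim34a (chr7:104244207-104244456, plus strand), Trim12c (chr7:104353350-104353599, minus strand), Trim30a (chr7:104465194-104465443, minus strand) and Trim30d (chr7:104507850-104508099, minus strand) are cluster members whose regions were nearly without reads in the active libraries. Trim30b was nearly without reads too, but its start in RefSeq lay 149203 bp from that of Trim30d, against 137965 bp in the files, and its sequence is not shown. Rnf32 (chr5:29195743-29195992, plus strand) and Trim54 (chr5:31116362-31116611, plus strand) rose. Marchf3, Klhl13 and Rnf182, which differed more than Trim54, are not shown. Capitals mark a core of the interferon-stimulated response element (GAAA, any 2 bases and GAAA, or on the reverse strand TTTC, any 2 bases and TTTC) and CCAAT boxes (CCAAT or ATTGG) in the TRIM cluster genes, GC boxes (GGGCGG) in Rnf32 and an AP-1 site (TGANTCA) in Trim54.
Trim34a: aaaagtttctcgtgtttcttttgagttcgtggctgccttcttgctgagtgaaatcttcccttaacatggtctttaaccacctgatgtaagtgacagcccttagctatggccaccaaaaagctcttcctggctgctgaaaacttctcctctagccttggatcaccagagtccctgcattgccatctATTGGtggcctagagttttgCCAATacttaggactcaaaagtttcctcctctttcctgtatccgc
Trim12c: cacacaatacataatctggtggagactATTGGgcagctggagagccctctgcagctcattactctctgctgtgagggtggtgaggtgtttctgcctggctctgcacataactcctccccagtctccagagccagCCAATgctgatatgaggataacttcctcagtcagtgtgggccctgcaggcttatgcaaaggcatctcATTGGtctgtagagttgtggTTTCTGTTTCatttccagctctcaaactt
Trim30a: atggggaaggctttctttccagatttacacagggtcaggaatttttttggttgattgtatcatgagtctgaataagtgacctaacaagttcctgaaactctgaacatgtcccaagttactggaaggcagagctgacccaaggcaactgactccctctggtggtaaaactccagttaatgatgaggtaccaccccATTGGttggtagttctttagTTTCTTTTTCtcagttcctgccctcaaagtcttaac
Trim30d: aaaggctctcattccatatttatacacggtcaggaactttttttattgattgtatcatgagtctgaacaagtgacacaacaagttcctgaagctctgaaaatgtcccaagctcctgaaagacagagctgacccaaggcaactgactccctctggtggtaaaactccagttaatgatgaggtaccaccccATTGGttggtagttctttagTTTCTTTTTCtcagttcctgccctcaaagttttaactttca
Rnf32: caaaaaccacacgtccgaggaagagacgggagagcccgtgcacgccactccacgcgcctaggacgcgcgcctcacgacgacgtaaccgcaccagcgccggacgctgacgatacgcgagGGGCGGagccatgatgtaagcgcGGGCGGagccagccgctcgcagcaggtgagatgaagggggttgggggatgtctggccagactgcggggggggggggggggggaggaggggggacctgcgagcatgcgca
Trim54: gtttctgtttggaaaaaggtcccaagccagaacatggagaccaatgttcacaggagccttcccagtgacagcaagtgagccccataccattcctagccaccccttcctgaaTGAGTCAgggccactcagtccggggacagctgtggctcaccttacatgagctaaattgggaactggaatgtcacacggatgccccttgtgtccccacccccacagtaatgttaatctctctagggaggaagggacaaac

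The interferon element core, which binds interferon-activated transcription factors, lay 29 bases before the start in Trim12c, 36 bases in Trim30a and 41 bases in Trim30d. In all 3 it followed a reversed CCAAT box, with 20 bases from the first letter of the box to the first letter of the core. Trim34a held 2 CCAAT boxes and no such core. These distances hold for the RefSeq starts used. The Trim12c start lay 154500 bp from that of Trim30d in RefSeq, against 154487 bp in the files, and Trim30a had 2 starts in RefSeq. The core was present on either strand in 978 of 32851 promoter windows of this length (2.98%), and a CCAAT box in 33.8%. Trim30a and Trim30d were identical at 89.0% of aligned bases, 227 of 255 positions, whereas Trim12c matched them at 55.1% and 53.5%. CpG dinucleotides, which are frequent in promoters of constantly used genes, numbered 3 in Trim34a, 0 in Trim12c, 0 in Trim30a, 1 in Trim30d and 2 in Trim54, against 29 in Rnf32 and a median of 6 over all windows. GC boxes were present in 32.7% of windows and AP-1 sites in 6.75%. The motifs were chosen after the values had been seen, and a match describes letters only.

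The TRIM cluster on chromosome 7 was nearly without reads in the active libraries. Trim12c (ENSMUSG00000057143, 104002388 to 104002793 on mm39), a mouse relative of the antiviral factor TRIM5, had 2, 2 and 3 normalised reads in active replicates 1 to 3, against 57, 56 and 49 in the inactive replicates. Its log2 fold change was -4.05 ± 0.33 (SE, limma, adjusted p = 9.44e-14), the 10th lowest of 11143 promoters tested. Trim30a (ENSMUSG00000030921, 104114203 to 104114842), which restrains NF-κB signalling in macrophages, had 5, 2 and 1 reads in active and 47, 76 and 83 in inactive libraries, a log2 fold change of -4.36 ± 0.35 (adjusted p = 6.56e-14 by limma). Within each of these promoters every active library lay far below every inactive one. Both reached the minimum mean of 10 over all libraries only through the inactive libraries, so that they had to differ. Their p-values and ranks describe the size of the gap and are no further support.

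The remaining members of the cluster gave the same picture. Trim30d (ENSMUSG00000057596, 104156834 to 104157352) had 1, 0 and 2 reads in active and 36, 41 and 45 in inactive libraries, with a log2 fold change of -4.51 ± 0.44 (adjusted p = 1.67e-11 by limma), the 6th lowest of all promoters. Trim30b (ENSMUSG00000052749, 104019135 to 104019617) had 2, 0 and 2 reads in active and 9, 22 and 25 in inactive libraries, a log2 fold change of -3.13 ± 0.55 (adjusted p = 6.12e-06 by limma). Trim34a (ENSMUSG00000056144, 103893558 to 103893738) had 0, 0 and 1 reads in active and 14, 15 and 22 in inactive libraries. Its mean was below the minimum of 10 over all libraries, so it was not tested, but its groups did not overlap either. Trim30d and Trim30b reached that minimum only through the inactive libraries and had to differ. Trim12a and Trim30c were not analysed here. Trim30 genes are close copies of each other and relatives of Trim12 and Trim34, so the split of reads between them is uncertain.

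The low values were not limited to TRIM genes. From Trim34a to Or52h7, an olfactory receptor gene, 10 consecutive regions spanned 312.525 kb, and 5 of them belonged to no gene of the ubiquitin system. The stretch and the regions named around it, Trim34a and the Usp17l genes included, were chosen after their values were seen. Over these 10 regions the active libraries held 0 to 5 normalised reads a region, and the inactive libraries 6 to 89. All 6 regions with enough reads for the test were lower. With so few active reads, a region could reach the minimum mean of 10 only through the inactive libraries, so this count was fixed in advance. Summed over the stretch, the active libraries had 18, 8 and 14 reads (13.3 ± 5.03, SD, n = 3), against 311, 366 and 405 in the inactive libraries (361 ± 47.2, SD, n = 3). The region nearest on the Trim34a side, 383.13 kb away and without a gene, had 6, 11 and 10 reads in active and 65, 62 and 59 in inactive libraries. On the other side, 286.97 kb away, the direction was the opposite. There, Usp17lb (104493052 to 104493305, 1369 bp from its start) had 35, 16 and 18 reads in active and 3, 2 and 4 in inactive libraries, and Usp17la (104510579 to 104510879, 4513 bp from its start) had 40, 44 and 36 against 6, 4 and 7. Both belong to a multicopy family of deubiquitinases, again with uncertain read assignment, and their log2 fold changes were 2.53 ± 0.42 (adjusted p = 1.9e-06 by limma) and 2.64 ± 0.30 (adjusted p = 6.64e-10 by limma). These 2 regions reached the minimum mean only through the active libraries and had to differ. Farther out, the olfactory receptor Or56b34 had 33, 46 and 45 reads in active and 37, 35 and 34 in inactive libraries and was not called (log2 fold change 0.21, adjusted p = 0.359 by limma). ATAC-seq reads depend on DNA copies as well as on openness. Copy number was not measured, so that a missing piece of chromosome and closed chromatin cannot be told apart here. In bulk samples, fewer cells with open chromatin and less opening per cell cannot be told apart either.

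**Figure D1:**
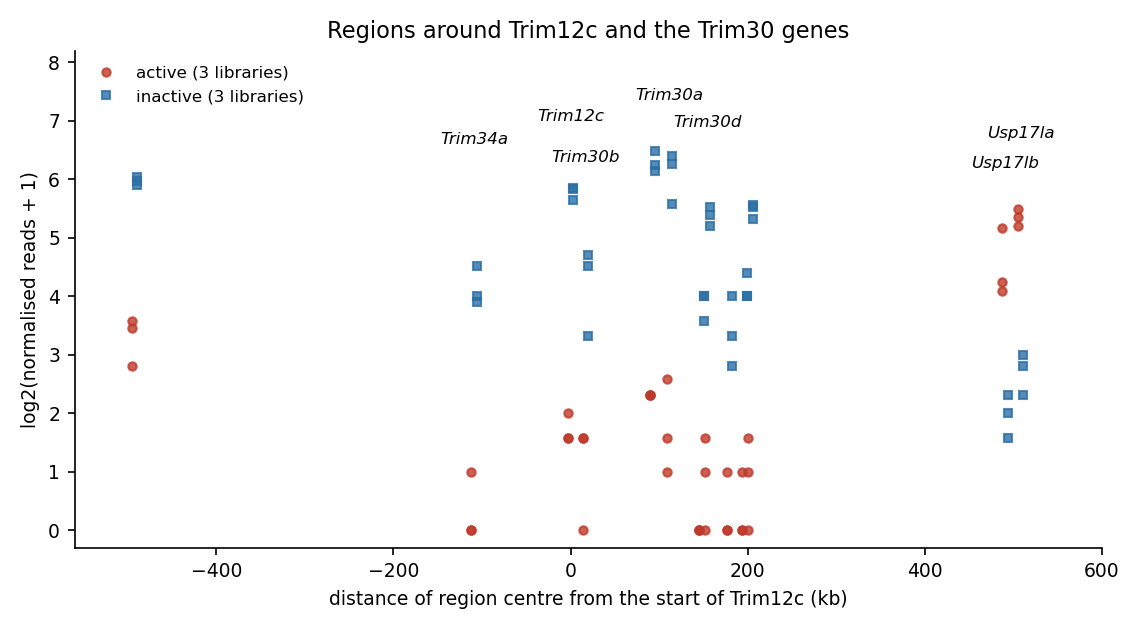
Level of each region around the Trim12 and Trim30 genes as log2(normalised reads + 1), by distance of its centre in kb from the Trim12c start, with each point 1 library, circles active and squares inactive, drawn slightly apart. From Trim34a to Or52h7 the active libraries held 0 to 5 reads a region and the inactive ones 6 to 89, whereas Usp17lb and Usp17la lay the other way round.

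Marchf3, a membrane-bound RING ligase of endosomes, rose the most clearly of the well-covered members. Its promoter (ENSMUSG00000032656, chromosome 18, 57058330 to 57059085) had 245, 269 and 265 normalised reads in the active libraries (259.7 ± 12.9, SD, n = 3), against 24, 19 and 21 in the inactive libraries (21.3 ± 2.52, SD, n = 3). The ratio of means was 12.2, and the log2 fold change of 3.55 ± 0.14 (adjusted p = 8.18e-24 by limma) was the 29th highest of all promoters. Regions without a gene symbol around it differed in both directions, by position. Between 56929335 and 57338033, limits set after the values were seen, all of them were called higher. The nearest, at 57032502, had 126, 136 and 143 reads in active and 50, 52 and 54 in inactive libraries. The region annotated to C330018D20Rik in that stretch was not called (log2 fold change -0.40). The one at 57183074 rose, with 56, 53 and 44 reads in active and 4, 3 and 1 in inactive libraries, as did the one at 57300509, with 221, 207 and 196 against 14, 12 and 7. At lower coordinates, the one at 56817847 fell, with 10, 4 and 5 reads in active and 30, 29 and 20 in inactive libraries (log2 fold change -1.96). Those at 56856550 and 56870305 had log2 fold changes of -0.21 and -0.38. The one at 56610139 rose by 0.53 on the log2 scale, and the one at 56755490 was not called. Neighbouring promoters differed in direction as well. Megf10 rose, with 21, 44 and 32 reads in active and 12, 12 and 12 in inactive libraries, a log2 fold change of 1.30, while Lmnb1, Aldh7a1 and Phax fell, with log2 fold changes of -0.39, -0.58 and -0.17. Fold changes of regions in the same 10 Mb window had a median of -0.29 on the log2 scale. When the values, rather than the fold changes, were centred on 10 Mb windows, Marchf3 stood at 3.73.

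The other MARCHF promoters moved far less. Marchf8, which removes immune receptors from the cell surface, and Marchf6, a ligase of the endoplasmic reticulum, rose by 0.39 and 0.36 on the log2 scale (adjusted p = 3.79e-06 and 5.39e-05 by limma). Marchf5, a ligase of the mitochondrial outer membrane, fell to 303, 284 and 288 reads in the active libraries, against 374, 398 and 414 in the inactive libraries, a log2 fold change of -0.44 (adjusted p = 9.17e-07 by limma). Marchf7 and Marchf2 both had a log2 fold change of -0.17 (adjusted p = 0.0388 and 0.0194 by limma), the first with overlapping groups. A region 1464 bp from the Marchf2 start fell further, with 17, 18 and 12 reads in active and 45, 41 and 49 in inactive libraries (log2 fold change -1.48). A region 1534 bp from the start of Marchf4 had 63, 99 and 74 reads in active and 60, 52 and 54 in inactive libraries (log2 fold change 0.48, adjusted p = 0.00787 by limma). Its call was lost after centring (0.20). The promoters of Marchf6 (0.084), Marchf8 (0.069), Marchf7 (-0.15) and Marchf2 (-0.14) lost theirs as well. Marchf6, Marchf7, the Marchf4 region and the farther Marchf2 region were added to complete the family after their values were seen.

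Besides Marchf3, 4 member promoters rose by at least 1 on the log2 scale. Trim54, a RING ligase that binds microtubules and sarcomeres in striated muscle, had 121, 148 and 135 reads in the active libraries (134.7 ± 13.5, SD, n = 3), against 34, 37 and 31 in the inactive libraries (34 ± 3, SD, n = 3), a log2 fold change of 1.95 ± 0.14 (adjusted p = 5.65e-15 by limma). Rnf32, a RING gene best known from human testis, had 63, 76 and 80 reads in active and 1, 4 and 8 in inactive libraries, a log2 fold change of 4.04 ± 0.35 (adjusted p = 1.4e-11 by limma) and the 13th highest of all promoters. Both promoters were well separated between groups, and the printed sequences show that Rnf32 is rich in CpG and Trim54 is not. Klhl13, an X-linked receptor of cullin 3 complexes that act on Aurora B in mitosis, had 48, 58 and 46 reads in active and 6, 5 and 8 in inactive libraries (log2 fold change 2.83 ± 0.27, adjusted p = 1.1e-11 by limma). Rnf182, a membrane RING ligase, had 41, 19 and 32 reads in active and 4, 3 and 8 in inactive libraries (log2 fold change 2.42 ± 0.36, adjusted p = 2.96e-07 by limma). Rnf32, Klhl13 and Rnf182 had low overall levels and were picked for their size after their values were seen.

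Among promoters at or above the median level of all tested regions (61.5 normalised reads), Ube2h, Trim24, Rnf6 and Rnf113a1 came next. Trim24, a transcription cofactor that reads histone marks and acts as a ligase of p53, had 1167, 1214 and 1166 reads in the active libraries, against 638, 671 and 636 in the inactive libraries, a log2 fold change of 0.87 ± 0.05 (adjusted p = 4.7e-19 by limma). Ube2h, an E2 that works with the CTLH ligase, had 534, 594 and 584 reads in active and 301, 306 and 321 in inactive libraries, a log2 fold change of 0.88 ± 0.06. Both genes lie on chromosome 6, where fold changes of regions in their 10 Mb window themselves had a median of 0.79 on the log2 scale. With values centred on 10 Mb windows, Trim24 stood at 0.04 and Ube2h at 0.06, no longer called. Rnf6, with a log2 fold change of 0.58, likewise stood at 0.08 after centring. Rnf113a1, a spliceosome-associated RING gene on the X chromosome, had 92, 101 and 95 reads in active and 70, 56 and 64 in inactive libraries and kept its call (0.60, and 0.50 after centring).

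Promoters that fell did so more modestly outside the TRIM cluster. Usp2, a deubiquitinase that stabilises cyclin D1, had 240, 244 and 278 reads in the active libraries (254 ± 20.9, SD, n = 3), against 439, 474 and 464 in the inactive libraries (459 ± 18, SD, n = 3), a log2 fold change of -0.85 ± 0.07 (adjusted p = 1.89e-13 by limma) and -0.34 after centring. Rnf39, a RING gene of the major histocompatibility region on chromosome 17, had 339, 359 and 377 reads in active and 585, 531 and 625 in inactive libraries. Its log2 fold change of -0.69 ± 0.07 (adjusted p = 4.86e-12 by limma) was almost the same after centring, -0.67. In both promoters all active libraries lay below all inactive ones. Cul2, the scaffold of von Hippel-Lindau ligase complexes, had 114, 127 and 122 reads in active and 198, 180 and 190 in inactive libraries (log2 fold change -0.64, and -0.24 after centring). Fbxo22, an F-box protein that targets histone demethylases, and Ube2q2, an E2, fell by 0.72 and 0.63 on the log2 scale, and lost their calls after centring (-0.20 and -0.11). The 5th promoter that fell by at least 1, beside the TRIM cluster genes, was Rnf227 with 12, 4 and 9 reads in active and 24, 29 and 21 in inactive libraries, also chosen after its values were seen.

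**Figure D2:**
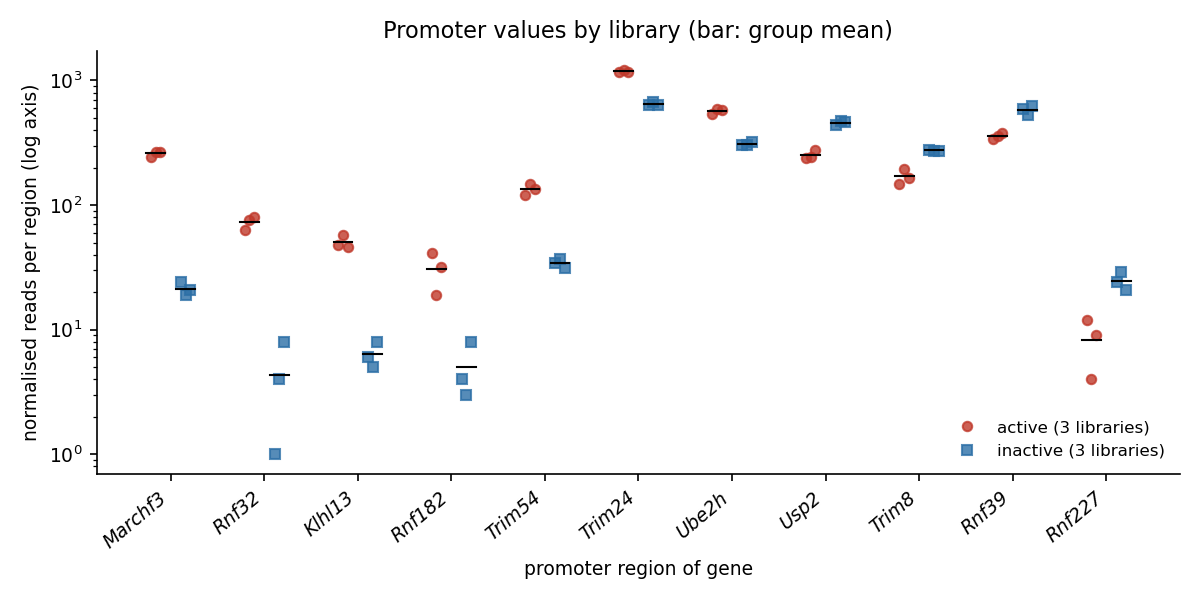
Normalised reads per region on a log axis for 11 promoters outside the TRIM cluster, with active libraries as circles left of inactive ones as squares, each point 1 library and each bar a group mean. Marchf3, Rnf32, Klhl13, Rnf182, Trim54, Trim24 and Ube2h were higher in every active library, and Usp2, Trim8, Rnf39 and Rnf227 lower.

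Counted together, the member promoters behaved much like promoters in general. Of 230 tested, 43 rose (18.7%) and 96 fell (41.7%), while 91 were not called. Over all 11143 promoters tested, 22.4% rose and 36.6% fell, 59.0% in either direction, close to the 60.1% called over all 51253 regions. The median log2 fold change was -0.12 in members and -0.10 in all promoters. Changes of at least 1 on the log2 scale were found in 5 members upward (2.17%) and 5 downward (2.17%), against 4.09% and 2.82% of all promoters. The groups did not overlap in 140 member promoters (60.9%), near the 61.3% of all promoters. These shares are near the background and are no result about the ubiquitin system. Member promoters were somewhat wider (median 980 against 846 bp) and more accessible (median 288 against 224 normalised reads) than all promoters.

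The filter on low values matters for the extreme members. Of the 300 regions, 297 were tested. In 12 of them the mean of 1 group was below 10, in 5 of them the active and in 7 the inactive mean, so that they passed through the other group and had to differ. These are Trim12c, Trim30a, Trim30b, Trim30d and Rnf227 on the lower side and Rnf32, Klhl13, Rnf182, Usp43, Usp17la, Usp17lb and Trim14 on the higher side. Not tested besides Trim34a were a Trim3 promoter (7, 9 and 6 reads in active, 11, 6 and 7 in inactive libraries) and a region 4940 bp from Siah3 (11, 14 and 13 against 6, 6 and 5).

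By family, counts are given beside the same background, 22.4% of all promoters up and 36.6% down. Of 49 RNF promoters 13 rose and 15 fell (median log2 fold change -0.08), and of 25 TRIM promoters tested 5 rose and 10 fell. The 6 MARCHF promoters were all called, 3 in each direction, and all 3 SIAH promoters fell. Among cullin-ligase parts, 7 of 48 F-box promoters rose and 21 fell (median -0.12), 5 of 20 KLHL promoters rose and 4 fell (median 0.02), and of 4 cullin promoters 1 rose and 2 fell. For HECT ligases, 2 of 3 NEDD4 and NEDD4-like promoters fell and neither of the 2 UBE3 promoters was called. The E2 family had 5 of 29 promoters up and 15 down (median -0.18). Of the deubiquitinases, 3 of 35 USP promoters were up and 16 down (median -0.14), and 1 of 6 OTUD promoters was up and 5 were down (median -0.23). No family was tested against the rest.

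**Figure D3:**
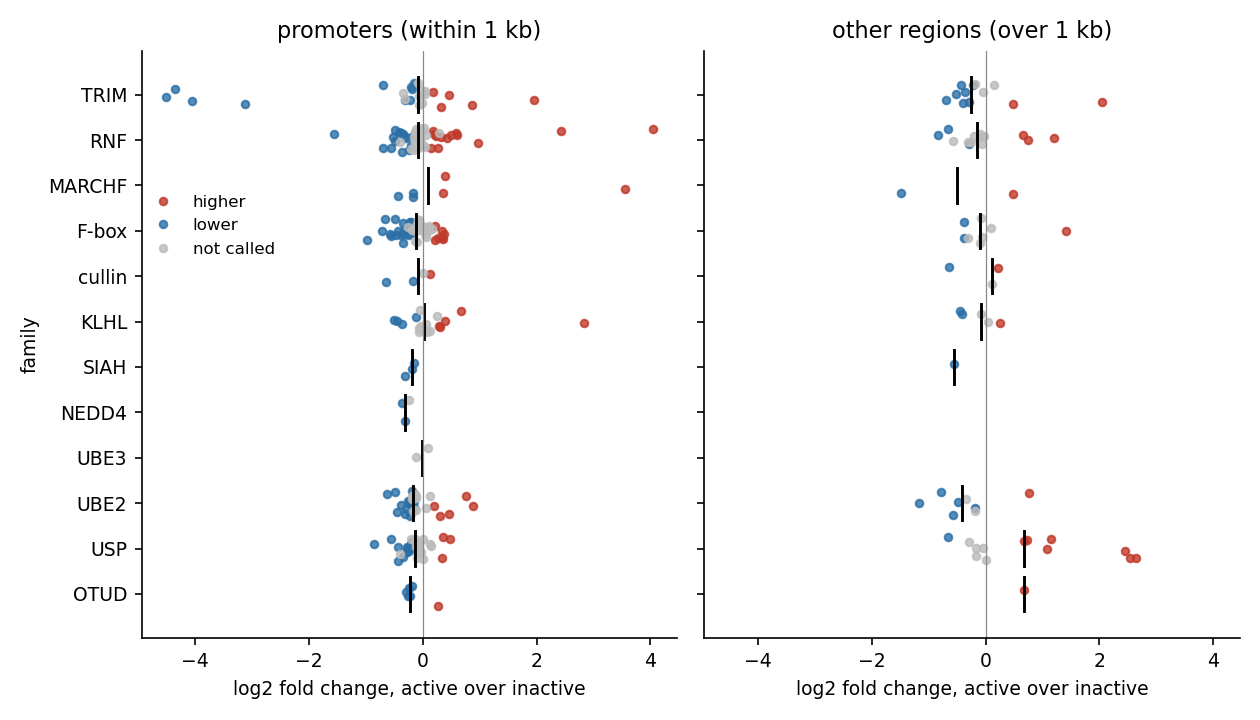
Log2 fold change, active over inactive, of every tested member region by enzyme family, promoters in the left panel and regions farther than 1000 bp from a start in the right, with points coloured by call and a bar at the family median. Promoter medians lay between -0.32 and 0.10, the lowest promoters are Trim30d, Trim30a, Trim12c and Trim30b and the highest Rnf32 and Marchf3, and in the right panel the USP median is 0.68. Trim30d, Trim30a, Trim12c, Trim30b, Rnf32, Usp17la, Usp17lb and Usp43 passed the filter on low values through a single group.

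The most accessible promoter of each family was read next. In the TRIM family this was Trim24, described above, with a log2 fold change of 0.87, and the others differed by less. Rnf5, a ligase of the endoplasmic reticulum, had 1521, 1440 and 1439 reads in active and 1423, 1608 and 1550 in inactive libraries and was not called (log2 fold change -0.06, adjusted p = 0.239 by limma). Per kb of region this was 1442 reads in active and 1501 in inactive libraries. Ube2d3, an E2 used by many RING ligases, had 1075, 935 and 916 reads in active and 1193, 1067 and 1194 in inactive libraries, with a log2 fold change of -0.24 (adjusted p = 0.000167 by limma) although the groups overlapped by 1 library, and the call was lost when limma was run without its trend of variance on level (adjusted p = 0.0952). Usp22, the deubiquitinase of the SAGA complex, and Nedd4l, a ligase that controls epithelial sodium channels, fell by 0.21 and 0.32 on the log2 scale, and both lost the call after centring. Cul4a, the scaffold of DNA repair ligases, and Otud4 fell by 0.17 and 0.19, and lost the call after centring too (-0.063 and -0.13). Ube3c was not called, with a log2 fold change of 0.09 (adjusted p = 0.179 by limma). The small falls of Fbxo11 (-0.14), Klhl24 (-0.12), Siah2 (-0.16) and the Marchf2 promoter lost their call when a library was left out, for example -0.11 for Fbxo11 and -0.11 for Klhl24 without inactive replicate 3, -0.14 for Siah2 without active replicate 2 and -0.14 for Marchf2 without active replicate 3.

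Role lists, chosen with earlier results of these data known and drawn from the members, gave the following counts, to be read beside the 22.4% of all promoters that rose and the 36.6% that fell. Of 16 promoters of cell cycle and DNA damage enzymes, 1 rose and 10 fell (median -0.17). Usp28, a deubiquitinase that stabilises MYC, and Rnf168, which marks chromatin at DNA breaks, had log2 fold changes of -0.43 and -0.49 (adjusted p = 4.73e-09 and 6.44e-06 by limma), and after centring 0.08 and -0.18, not called. Fbxw7, a receptor for cyclin E, was at 0.05 and not called (adjusted p = 0.53 by limma), and the small rise of Cul3 (0.13) was lost without any of 4 libraries (0.11 to 0.14 on the log2 scale). Of 14 chromatin and transcription enzymes 2 rose and 9 fell (median -0.22). Rnf111, a ligase of TGF-beta signalling, and Ube2b, the E2 of histone H2B, fell by 0.37 and 0.32 on the log2 scale, the first a call lost without the trend (adjusted p = 0.0515 by limma). Trim24 and Rnf2, a Polycomb ligase, made up the 2 that rose, but Rnf2 (0.19) had overlapping groups and lost its call without active replicate 2 (0.11).

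Immune signalling had 2 of 18 promoters up and 11 down (median -0.22), where 22.4% of all promoters rose and 36.6% fell, with Trim30d and Trim30a as the lowest. The 11 include Trim12c, Trim30a, Trim30b and Trim30d, which share the chromosome 7 stretch and passed the filter only through the inactive libraries. The 2 that rose, Trim56 (0.31) and Trim35 (0.18), changed sign after centring (-0.13 and -0.32), and Trim56 lost its call without active replicate 2 (0.24) and Trim35 without inactive replicate 2 (0.16). Of 26 promoters of 25 enzymes of the endoplasmic reticulum, mitochondria and membrane traffic 4 rose and 9 fell (median -0.12). Beside the MARCHF genes above, Rnf185, a ligase that removes misfolded membrane proteins, fell to 261, 201 and 213 reads in the active libraries, against 281, 339 and 327 in inactive ones (log2 fold change -0.49). In the list of muscle and cytoskeleton enzymes, 2 of 9 rose and 1 fell (median 0.03). Besides Trim54, Klhl42, a katanin-binding receptor, rose by 0.31 on the log2 scale but stood at -0.36 after centring. Klhl20 fell by 0.46, and Klhl40, a muscle thin-filament factor, was at -0.06 and not called (adjusted p = 0.71 by limma).

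Regions farther than 1000 bp from a start were read apart. Of 67 tested, 18 rose (26.9%) and 23 fell (34.3%), against 28.9% and 30.1% of 7775 such regions with a gene. At least 1 on the log2 scale, 8 rose (11.9%) and 2 fell (2.99%), against 12.0% and 6.75%. Of the 13 USP regions 7 rose and 1 fell, the median being 0.68 on the log2 scale, and 5 of them rose by at least 1. Among these 5 were Usp17la, Usp17lb and Usp43, which passed the filter only through the active libraries and had to differ. The rest of the 5 were regions of a single gene, Usp7. In the 12 TRIM and the 8 UBE2 regions, falls were more frequent, 7 and 5, against 2 and 1 that rose.

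Usp7, the deubiquitinase of MDM2 and p53, had 2 regions more open in the active libraries. The nearer one, 1332 bp from the start on chromosome 16, had 92, 94 and 87 reads in active and 47, 39 and 36 in inactive libraries (log2 fold change 1.15 ± 0.15, adjusted p = 2.17e-08 by limma). At 3840 bp, the farther one had 32, 39 and 38 reads in active and 16, 24 and 12 in inactive libraries (log2 fold change 1.07), and was added after its values were seen. Usp43, whose region lay 2275 bp from the start, had 63, 49 and 58 reads in active and 11, 7 and 11 in inactive libraries (2.45 ± 0.24, adjusted p = 2.4e-11 by limma). Trim14, an adaptor in antiviral signalling, had 27, 25 and 31 reads in active and 6, 7 and 5 in inactive libraries (2.04 ± 0.32, adjusted p = 8.16e-07 by limma). Usp43 and Trim14, both low, were chosen after their values were seen and passed the filter only through the active libraries. Rnf223, Usp44, which keeps the spindle checkpoint active, Otud4, Rnf11 and Trim7 had regions that rose by 0.48 to 0.74 on the log2 scale. Trim7, the lowest of them, lost its call without active replicate 3 (0.36) and after centring (0.20).

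Among regions that fell, 1 region of Rnf213, a giant ligase linked in human to moyamoya vessel disease, stood out for its level. The Rnf213 promoter, 30 bp from the start, was not called (log2 fold change -0.03, adjusted p = 0.872 by limma). That promoter had 64, 49 and 61 reads in active and 55, 69 and 54 in inactive libraries. The region that fell, at 2730 bp from the start on chromosome 11 (119280612 to 119281780), had 196, 200 and 208 reads in the active libraries, against 350, 372 and 365 in the inactive libraries. Its log2 fold change was -0.84 ± 0.08 (adjusted p = 1.1e-12 by limma) and -0.67 after centring. Cul5, the scaffold of SOCS-box ligases, fell by 0.64 on the log2 scale but stood at -0.11 after centring, not called. Ube2v1, a catalytically inactive E2 variant that pairs with Ube2n, and Trim41 fell by 0.57 and 0.52. Klhl30 and Trim69, a microtubule-bound TRIM protein, fell by 0.46 and 0.44, the latter in 1 of its 3 regions.

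There were 36 member genes with several regions. In 16 of them only a part of the regions was called in 1 direction, and in 8 none was called. All regions rose in 3 genes (Usp7, Ube2h and Fbxw8) and all fell in 6, among them Trim8, Trim41 and Usp2. The same counts were not made over all genes with several regions, so they are no result about the members. Trim8, a RING ligase of cytokine signalling, was the gene with the most regions, 4. Its promoter had 148, 196 and 166 reads in active and 279, 272 and 273 in inactive libraries (log2 fold change -0.70 ± 0.09, adjusted p = 1.1e-08 by limma). Its 3 other regions fell by 0.22 to 0.37, but after centring they stood between -0.11 and 0.04 and were not called, and the region at 1194 bp also lost its call without active replicate 1 (-0.24) or inactive replicate 2 (-0.31). In 3 genes a region rose while another fell.

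Usp19, a membrane-anchored deubiquitinase, was the first of these: a region 1669 bp from the start had 84, 62 and 79 reads in active and 48, 45 and 45 in inactive libraries, whereas its promoter had 215, 228 and 191 against 279, 273 and 303. The log2 fold changes were 0.68 and -0.43 (adjusted p = 0.000252 and 1.89e-05 by limma). Otud4 had 183, 198 and 210 reads at 3257 bp in active and 135, 117 and 119 in inactive libraries (0.67), while its promoter, with 594, 611 and 634 against 691, 670 and 732, had a log2 fold change of -0.19. Ube2m, the E2 for the ubiquitin-like NEDD8, had 57, 60 and 54 reads in active and 25, 39 and 37 in inactive libraries at 548 bp from its start (0.77). Nearer, at 173 bp, it had 207, 198 and 181 reads in active and 221, 211 and 249 in inactive libraries (log2 fold change -0.21), a call lost without active replicate 3 (-0.16) and after centring (-0.0015). After centring, the fall of the Otud4 promoter was lost as well (-0.13), and of the 3 genes Usp19 kept both calls.

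Direction went with the chromosome. On chromosomes 5, 6, 12, 13 and 15, where the median over all tested regions was above 0.2 on the log2 scale, 27 of 38 member promoters rose (71.1%) and 0 fell, where 59.7% of all 2625 promoters rose and 263 fell. Chromosomes 9, 11, 18 and 19, with a median below -0.2, held 52 member promoters, of which 1, Marchf3, rose and 39 fell (75.0%), against 5.33% and 65.8% of all promoters there. On the other 11 chromosomes 15 of 140 rose (10.7%) and 57 fell (40.7%), against 12.7% and 37.9%. These stretches were defined from the same data, and the part of DNA copy number in them was not tested.

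Values were therefore also centred on the median of all regions in each 10 Mb window. Then 17 member promoters were higher (7.39%) and 95 lower (41.3%), against 9.73% and 38.5% of all promoters. The window medians cover all regions and not promoters alone. With centring, the median log2 fold change of all promoters went from -0.10 to -0.16, and 9.73% instead of 22.4% rose. Of the 43 member promoters that rose without centring, 14 kept the call, 19 lost it and 10 were called lower. Of the 96 that fell, 55 kept the call and 41 lost it. Called lower only after centring were 40, the 10 above included. Such changes of call were not counted over all promoters. Trim12c, Trim30a, Trim30b, Trim30d, Marchf3, Rnf32, Klhl13, Rnf182 and Trim54 kept their calls, whereas Trim24, Ube2h, Marchf6 and Marchf8 did not. Of those that kept it, all but Marchf3 and Trim54 had passed the filter through a single group.

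**Figure D4:**
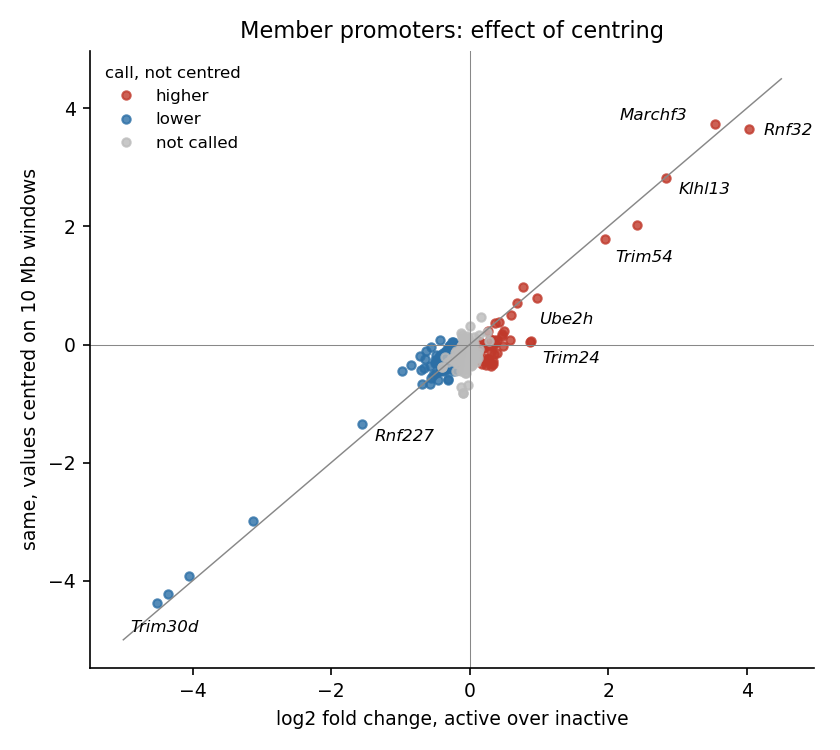
Log2 fold change of each member promoter, active over inactive, on the horizontal axis, and the same from values centred on 10 Mb windows on the vertical axis, with points coloured by the call without centring. The values farthest from 0 keep their sign, with Rnf32 moving from 4.04 to 3.65 and Trim30d from -4.51 to -4.37, and Trim24 and Ube2h move to 0.04 and 0.06.

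The rest of the ubiquitin system, 162 listed genes that are no members, gave a similar split. Of 136 promoters tested, 32 rose (23.5%) and 56 fell (41.2%), and the median was -0.11, near the shares of all promoters given above. Among ubiquitin genes and E1 enzymes 1 of 11 promoters rose and 5 fell, among other HECT and N-end ligases 6 of 20 rose and 6 fell, and among other RING and U-box ligases 8 of 49 rose and 23 fell. Cullin partners had 10 of 31 up and 12 down, and other deubiquitinases 7 of 25 up and 10 down. Birc3, an inhibitor of apoptosis and the highest RING ligase of the list, had 95, 108 and 124 reads in active and 52, 41 and 52 in inactive libraries (log2 fold change 1.16, adjusted p = 6.23e-09 by limma). Keap1, the cullin 3 receptor for NRF2, had 86, 134 and 108 reads in active and 228, 197 and 213 in inactive libraries (log2 fold change -0.97, adjusted p = 2.71e-09 by limma). Both were named as extremes after their values were seen.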

How the data were processed

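The ATAC-seq table covered 6 libraries. Its values are a score: the deposited numbers are whole but, read from the values themselves, are normalised reads: the authors scaled each library's reads by a factor and rounded them, as the libraries' median ratios to their geometric mean lying between 1.00568 and 1.00627, and 26 whole numbers below 60 missing from active replicate 2, show. Per the submitters' processing notes, the tools were STAR 2.7.11a, Trimmomatic 0.39, featureCounts, Picard 3.1.1 and DESeq2 1.36.0, and the build was mm39. The peak caller is not given in the sources used here. Active replicate 1 lacked 10 such numbers, and active replicate 3 and each inactive replicate lacked 0. Missing numbers mean that reads of active replicates 1 and 2 were scaled up, so a low value there can stand for fewer reads. The depth itself before scaling is unknown.

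For the test, limma 3.58.1 (R 4.3.3, trend and robust settings, group as the only term) was fitted to log2(value + 1) in all 51253 regions whose mean reached 10. Benjamini-Hochberg adjustment covered all of these regions, and the threshold was 0.05. "Rose", "fell" and "called" refer to this threshold. Fold changes are active over inactive and understate changes of low regions. The script was tested on simulated data. Tables were read with Python 3.11.15 and pandas 2.3.3, and sequences were aligned with Biopython 1.88.

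Regions named in the text were Marchf3 and the Trim12 and Trim30 genes, the 6 largest changes of different genes per direction and class among regions of at least median level, the most accessible promoter per family, genes with 4 or more regions or with calls in both directions, and the 2 highest and 2 lowest genes of each role list. Exceptions are stated beside their values. Members and lists were chosen with earlier results of these data known. Deviations of equally numbered libraries from their group means correlated at 0.001, -0.006 and -0.016, so the numbers do not pair the libraries.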

Additional observations from a re-analysis of the deposited data

How the results depend on the processing

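Alternatives were another pseudocount, no or a stricter filter, limma without trend, quantile normalization, centring on 10 Mb windows, the replicate block, leaving out each library and, for the counts, a promoter limit of 500 bp. The counts of 43 promoters that rose and 96 that fell, 18 other regions that rose and 23 that fell, 32 pathway promoters that rose and 56 that fell, and 57 called among 61 named regions kept within 1.5 times, with these exceptions. Without the trend, 55 member and 28 pathway promoters fell. The calls of 16 named regions were then lost: Cul3, Cul4a, Rnf2, Rnf111, Siah2, Ube2d3, Ube2m at 173 bp, Otud4 at 92 bp, Usp22, Trim35, Trim56, Klhl24, Marchf2, Fbxo11 and Trim8 at 1194 and 1648 bp. After centring, 17 member and 7 pathway promoters rose, and 34 named regions were called. With 1 library left out the counts ran from 38 to 44 and 76 to 100 for member promoters, 17 to 18 and 19 to 25 for other regions, 28 to 31 and 46 to 56 for the pathway and 50 to 54 for named regions. Centring reversed Rnf2 (-0.052), Fbxw7 (-0.016), Ube3c (-0.30), Trim56 (-0.13), Klhl42 (-0.36), Usp28 (0.080), Trim35 (-0.32) and the Trim8 region at 1648 bp (0.044). Klhl40 was 0.082 without active replicate 2. The cause was not tested. Calls lost with a library left out were those of Klhl24 (-0.14 to -0.07, any library but active replicate 2), Trim56 (0.23 to 0.31, active 1 or 2, inactive 1 or 2), Cul3 (0.11 to 0.14, active 2 or any inactive), Siah2 (-0.15 to -0.12, active 2 or 3, inactive 1 or 3), Ube2m at 173 bp (-0.23 to -0.15, active 3, inactive 1 or 3), Rnf2 (0.11 to 0.18, active 2, inactive 2 or 3), Marchf2 (-0.16 to -0.14, active 3, inactive 2), Trim8 at 1194 bp (-0.31 to -0.24, active 1, inactive 2), Trim7 (0.36, active 3), Trim35 (0.16, inactive 2) and Fbxo11 (-0.11, inactive 3). Of 57 called named regions 28 kept their call under every alternative run, Marchf3, Trim54, Usp2, Rnf39, Cul2 and Rnf213 among them. Trim12c, Trim30a, Trim30b and Trim30d are also among the 28, but passed the main filter only through the inactive libraries and had to differ. The stricter filter, a mean of at least 30, left out Trim12c, Trim30b and Trim30d, and Trim34a was not tested in the main fit.

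With the replicate number as a block, 43 member promoters rose and 94 fell, 18 and 23 other regions, 31 and 56 pathway promoters, and 56 named regions were called. Klhl24 alone lost its call, at -0.12. Low regions limit precision, since rounding after scaling makes single reads uncertain.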
